A study of Mus musculus with 16 samples.

Results

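A set of 9 genes that encode transcription factors of spinal interneurons was followed across the spinal cords of 16 mice. They are Pax2, Lhx1, Lhx5, Lbx1, Tlx3, Lmx1b, En1, Gata3 and Ebf1, taken by name from the 24411 gene symbols in the files. All 9 were found, and all 9 were among the 16091 genes tested, whose average TPM (a level corrected for transcript length and library size) exceeded 1 in 1 or more of the 3 conditions. In every condition 6 of them passed this limit. Lhx1 and Tlx3 passed it in both SCI groups and not in the Uninjured Control group, and Gata3 passed it in the Uninjured Control group alone.

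All mice were female C57BL/6J. The SCI + Atorvastatin group (n = 7) and the SCI + Vehicle group (n = 7) received a lateral compression injury of the thoracic cord, a model in which a narrowed forceps squeezes the cord from both sides, and were 18 wk old at isolation. Both received daily injections for 4 wk from 2 wk after injury, of atorvastatin at 10 mg/kg or of its vehicle of DMSO, polyethylene glycol, Tween 80 and saline. The Uninjured Control group (n = 2) was not injured and not injected. The labels list 12 wk as the starting age of every mouse and give the controls no other age. The paper puts the controls at a younger age at isolation than the SCI mice. Injury, injections and age therefore cannot be told apart in comparisons with this group. RNA came from a short segment around the injury, or the matching segment of the uninjured cord, as bulk tissue.

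Spinal interneurons arise in the embryo from ordered progenitor domains, and each class is set by a combination of transcription factors that are partly kept in the adult. Pax2, Lhx1 and Lhx5 act in inhibitory neurons of the dorsal horn and in several ventral inhibitory classes. Lbx1 defines a group of dorsal classes, and Tlx3 and Lmx1b act together in excitatory dorsal neurons, where Tlx3 opposes the inhibitory program of Pax2. En1 marks ventral V1 inhibitory neurons, Gata3 the inhibitory V2b class, and Ebf1 is an early factor of differentiating neurons that is also used outside the nervous system. Lmx1b is also known for serotonergic neurons, whose cell bodies lie in the brainstem.

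In these data, Lmx1b was lower and Lhx1 higher in both SCI groups than in the Uninjured Control group, and Lhx1 was lower in SCI + Atorvastatin than in SCI + Vehicle at the unadjusted threshold. The other 7 factors passed no threshold in any of the 3 comparisons. Counts were compared with edgeR's quasi-likelihood test. A gene was called where the fold change exceeded 1.25 in either direction and, for comparisons with the controls, the p after Benjamini-Hochberg adjustment was under 0.05. Between treatments the same fold was required with an unadjusted p under 0.001. Levels are given as CPM (counts scaled to a common library size with TMM normalization), and differences as log2 fold changes with their standard errors (SE). In bulk tissue, fewer cells of a type and less RNA per cell cannot be told apart.

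The libraries held 14823292 to 25579826 counts on genes, and where no read was counted the level could still be as high as 0.116 to 0.204 CPM, depending on the library (3 counts, counting error only, since reads lacking molecular identifiers are not independent). The 2 Uninjured Control libraries stood apart, with counts in 12732 and 12356 genes against 16399 to 19338 in the SCI mice. Lhx1 had a mean of 120.1 counts in the SCI mice. Of 840 genes averaging between 100 and 150 counts in those mice, 27.0% were at 0 in both controls and 44.0% in just 1 of them, while at most 1.43% were at 0 in any SCI mouse. Liver markers summed to 1192 and 6597 TPM in the Uninjured Control mice and to at most 13.39 in any SCI mouse. The part of these differences in the results below was not tested.

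The factors were low to moderate in level. Ranked by mean TPM over the 14 SCI mice, Lbx1 was at the top with 45.7 ± 16.4 (SD), followed by Ebf1 at 26.1 ± 4.79, Lmx1b at 19.99 ± 8.21 and Pax2 at 10.96 ± 3.07. Lhx5 (6.18 ± 3.21), Tlx3 (4.35 ± 3.28), Lhx1 (4.13 ± 1.57) and En1 (3.95 ± 2.75) lay close together, and Gata3 was lowest at 0.77 ± 0.56. The median of the 16091 tested genes was 19.1 TPM. Lbx1 exceeded Ebf1 in 12 of 14 SCI mice and Lmx1b exceeded Pax2 in 12 of 14, so the upper order held in most mice. Lhx5, Tlx3, Lhx1 and En1 did not separate from their neighbours, since Lhx5 exceeded Tlx3 in 8 mice, Tlx3 exceeded Lhx1 in 6 and Lhx1 exceeded En1 in 8. En1 exceeded Gata3 in 14 of 14. In the 2 Uninjured Control mice Lmx1b had 100.5 and 67.56 TPM and Lbx1 had 128.9 and 42.13, and Lmx1b exceeded Ebf1 in both mice.

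**Figure D1:**
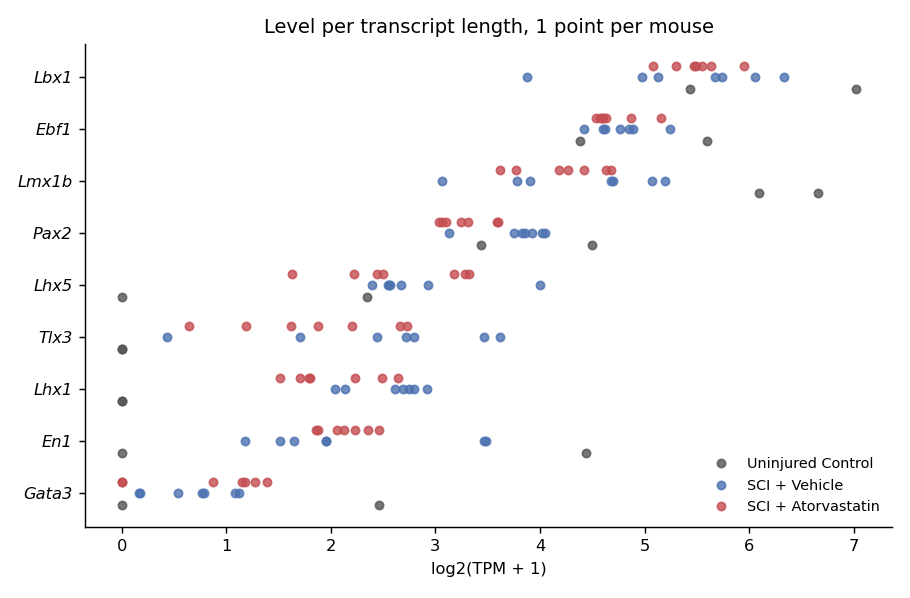
Level of each factor as log2(TPM + 1) on the x axis, with 1 point per mouse and the factors ordered by their mean over the 14 SCI mice (Uninjured Control n = 2, SCI + Vehicle n = 7, SCI + Atorvastatin n = 7). Lbx1 lies highest and Gata3 lowest, and both Uninjured Control points of Lmx1b lie to the right of every SCI mouse while both of Lhx1 lie at 0.

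Lmx1b, a LIM homeodomain factor of excitatory dorsal horn neurons, fell in both SCI groups. Its CPM was 53.57 and 36.56 in the 2 Uninjured Control mice. In SCI + Vehicle it was 5.16 at the lowest, 13.32 at the median and 18.14 at the highest, and in SCI + Atorvastatin 7.46, 10.54 and 13.93. Every SCI mouse lay below both Uninjured Control mice, as was the case for 10.7% of all genes in SCI + Vehicle and 14.2% in SCI + Atorvastatin. The log2 fold change was -1.96 (SE 0.43, edgeR adjusted p = 0.00676) in SCI + Vehicle and -2.001 (SE 0.27, edgeR adjusted p = 0.000291) in SCI + Atorvastatin, about 0.258 and 0.250 of the control level. Across all genes tested, 29.8% were called in the first comparison (9.91% as lower) and 38.9% in the second (14% as lower). The 2 comparisons share their control mice. With either control left out the value was -1.65 and -2.21 in SCI + Vehicle and -1.70 and -2.26 in SCI + Atorvastatin. The direction was thus the same with either control, but such fits hold 1 control and no spread among controls. Under voom with group quality weights, an alternative that lets the groups differ in spread, the adjusted p was 0.255 in SCI + Vehicle, which ends that call.

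Lhx1, a LIM homeodomain factor of inhibitory classes, rose against the Uninjured Control group, in which both mice had 0 counts. The SCI + Vehicle mice had 103 counts at the lowest, 170 at the median and 192 at the highest, and the SCI + Atorvastatin mice 47, 73 and 138. All SCI mice therefore lay above both controls, as did those of 24.8% of all genes in SCI + Vehicle and 29.8% in SCI + Atorvastatin. Against the level that 3 counts per library allow, Lhx1 was 49.7-fold higher in SCI + Vehicle and 24.7-fold higher in SCI + Atorvastatin. Both folds are lower bounds for counting error only and were not tested. The edgeR fits against the controls at 0 gave an adjusted p of 0.000134 in SCI + Vehicle and 0.00023 in SCI + Atorvastatin. Of genes averaging 100 to 150 counts in the SCI mice, 44.0% were at 0 in just 1 control. Lhx1 was tested only because its level in the SCI groups passed the TPM limit, and a gene at 0 in both controls can differ from them only upward, so the direction is a description. With no limit on the level the adjusted p was 0.000162 and 0.000303 (edgeR). Those fits use the same counts against the same controls at 0, so they are no separate support. Of all genes tested, 19.9% and 24.9% were called higher in these comparisons, and of those called higher 52.2% and 47.6% had 0 counts in both controls, as Lhx1 did. Leaving out either control leaves the other at 0, so those fits cannot test the call. Voom with group quality weights ended the call in both comparisons (adjusted p = 0.584 and 0.471).

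Between the treatments Lhx1 had the larger difference of the 2 factors with an unadjusted p below 0.05. Its CPM was 4.84, 2.76, 2.33, 3.00, 2.601, 3.59 and 5.61 in SCI + Atorvastatin replicates 1 to 7. It was 8.06, 7.69, 7.31, 7.01, 6.99, 5.02 and 7.79 in SCI + Vehicle replicates 1 to 7. On CPM all 7 treated mice lay below the vehicle median and 6 of 7 below the lowest vehicle mouse, the exception being replicate 7. On TPM the groups overlapped more, with 1.86 to 5.25 in SCI + Atorvastatin and 3.1 to 6.58 in SCI + Vehicle. The log2 fold change was -1.01 (SE 0.25, 95% interval -1.53 to -0.49), with an unadjusted p of 0.000563 and an adjusted p of 0.68 (edgeR), rank 4 of 16091. Of all genes 0.106% were called in this comparison, 0.0186% as lower, and no gene had an adjusted p below 0.05 (DESeq2, limma and voom also gave 0, while an unadjusted p under 0.05 in edgeR was found for 1132 genes, 7.03%). Lhx1 stayed below the unadjusted threshold of 0.001 in 4 of 14 fits that left out 1 mouse, with log2 values from -1.16 to -0.93 and p from 0.000167 to 0.00154, and the fits that kept it were those without SCI + Atorvastatin replicate 1 or 7 or SCI + Vehicle replicate 4 or 6. With all 3 groups in 1 fit its unadjusted p was 0.00234 (edgeR), and on log2(TPM + 1) it was 0.0222 (limma) with a log2 difference of -0.54, both above the limit of 0.001.

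Pax2, a paired-domain factor kept in inhibitory dorsal neurons, was the other factor with an unadjusted p below 0.05 between the treatments. Its CPM was 11.39 at the lowest, 13.34 at the median and 15.59 at the highest in SCI + Atorvastatin, and 12.35, 19.31 and 24.91 in SCI + Vehicle. All 7 treated mice lay below the vehicle median and 1 below the lowest vehicle mouse, so the groups overlapped. The log2 fold change was -0.52 (SE 0.15, 95% interval -0.82 to -0.21, edgeR unadjusted p = 0.00206, adjusted p = 0.68, rank 37), which misses the threshold of 0.001. Of 14 fits that left out 1 mouse, 1 had an unadjusted p below 0.001. It left out SCI + Vehicle replicate 2, the lowest vehicle mouse, with a value of -0.60 and an unadjusted p of 0.000199 (edgeR). The highest p was 0.00552, without SCI + Vehicle replicate 7 (edgeR). None of the 10 other alternatives had a p below 0.001. The Uninjured Control mice had 28.82 and 12.19 CPM, above and below every SCI + Vehicle mouse, while 1 SCI + Atorvastatin mouse lay below both.

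Lhx5, the close relative of Lhx1, had 5.77 and 0.0453 CPM in the Uninjured Control mice, from 115 counts and 1 count. SCI + Vehicle had 5.58 at the lowest, 7.01 at the median and 14.01 at the highest, and SCI + Atorvastatin 1.98, 4.81 and 9.63. The difference between treatments was -0.33 on the log2 scale (95% interval -0.96 to 0.30, edgeR adjusted p = 0.86). Unlike the case of Lhx1, treated mice lay both above and below the vehicle median (3 and 4 of 7), but the difference between the 2 genes was not tested.

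**Figure D2:**
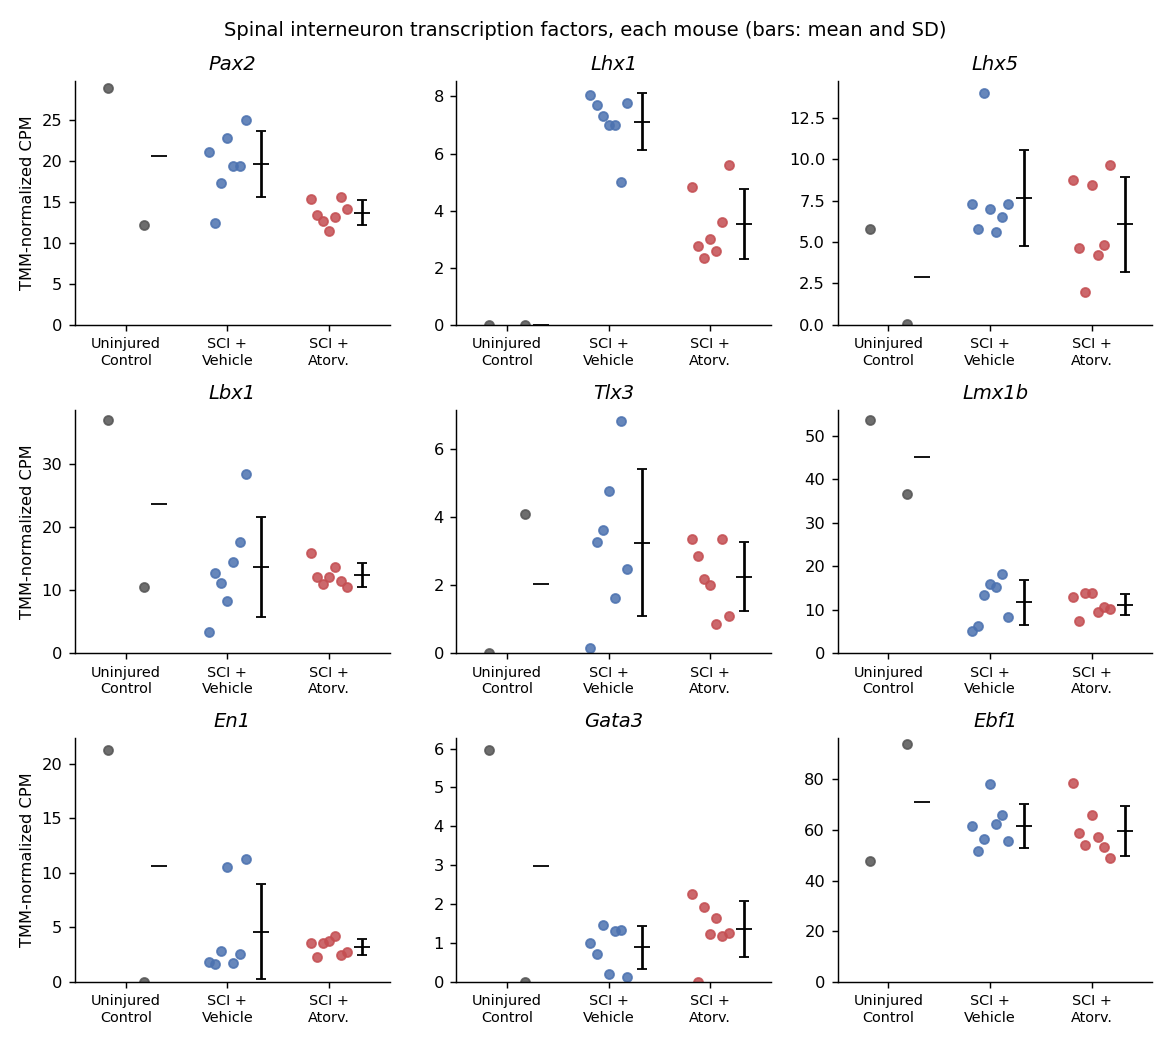
TMM-normalized CPM of each factor on the y axis of its panel, with 1 point per mouse in replicate order and a bar for the mean and SD beside each SCI group (a dash for the mean of the 2 controls). Lhx1 is at 0 in both controls and lies below the lowest vehicle mouse (5.02) in 6 of 7 treated mice, and Lmx1b is highest in the controls.

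Among the other dorsal factors, Lbx1, a homeodomain factor of several dorsal classes, had 37.05 and 10.47 CPM in the Uninjured Control mice. Its SCI + Vehicle mice ranged from 3.36 to 28.52 (median 12.77) and its SCI + Atorvastatin mice from 10.60 to 15.95 (median 12.05). The treated mice lay within the range of the vehicle mice, and the log2 fold change was -0.15 (95% interval -0.75 to 0.45). Tlx3, which acts with Lmx1b in excitatory neurons, had 0 and 4.08 CPM in the controls, 0.168 to 6.81 in SCI + Vehicle and 0.854 to 3.36 in SCI + Atorvastatin. The control mouse with 90 counts of Tlx3 is listed at 0 TPM, so the 2 units disagree for this gene. Its difference between treatments was -0.53 (95% interval -1.62 to 0.56).

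Of the ventral factors, En1 had 21.29 and 0 CPM in the controls. Its SCI + Vehicle mice ranged from 1.60 to 11.27 (median 2.51), with replicates 4 and 7 above 10, and its SCI + Atorvastatin mice from 2.31 to 4.23 (median 3.53). The difference between treatments was -0.51 (95% interval -1.44 to 0.43). Gata3 had 5.97 and 0 CPM in the controls, 0.132 to 1.46 in SCI + Vehicle and 0 to 2.25 in SCI + Atorvastatin. It was the only factor with a higher mean in the treated mice, at 0.61 on the log2 scale (95% interval -0.89 to 2.11). Ebf1 had the smallest relative spread of the 9 over the SCI mice (coefficient of variation 14.9%), with 51.79 to 78.34 CPM in SCI + Vehicle, 48.95 to 78.47 in SCI + Atorvastatin, and 47.84 and 94.10 in the controls. Its difference between treatments was -0.05 (95% interval -0.28 to 0.17).

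Against the controls Lhx5, Lbx1, Tlx3, En1, Gata3, Ebf1 and Pax2 were not called, and for all of these but Lhx5 the direction depended on which control was used. The log2 fold change turned sign between the fits with 1 control and with the other for 6 of 9 factors in each comparison. Without Uninjured Control replicate 1, 5 factors were called in SCI + Vehicle and 6 in SCI + Atorvastatin, and without replicate 2 again 5 and 6, against 2 and 2 with both. The share of all genes called also went up, to 47.7% and 60.3% without replicate 1 and to 48.5% and 61.1% without replicate 2. En1, for example, was at 9.67 without replicate 1 and at -2.23 without replicate 2 in SCI + Vehicle, and Tlx3 was at -0.34 and 9.15 in the same fits, where 9.67 and 9.15 are fitted against a control at 0 and give no bound. The intervals with both controls were wide, from -4.21 to 1.76 for En1 and from -2.55 to 3.83 for Tlx3 in SCI + Vehicle.

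Over the 9 factors, 8 had a negative log2 fold change between the treatments, with a median of -0.33, beside 50.3% of all genes tested and a median of -0.0014. The 12 neuron markers were also all lower, with a median of -0.157 and none called. The 6 fibroblast or meningeal markers were all higher, with a median of 0.94 and none called. An unadjusted p below 0.05 (edgeR) was found for 1 of the 12 and for all 6, beside 7.03% of all genes. Fibroblast marker TPM summed to 76.7 to 713.6 in SCI + Vehicle and 461.1 to 1158 in SCI + Atorvastatin. The part of either in the values of the factors was not tested. Against the controls, 9 of 12 neuron markers in SCI + Vehicle and 10 of 12 in SCI + Atorvastatin were called lower, with medians of -0.73 and -0.86. Lmx1b lay below both medians.

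**Figure D3:**
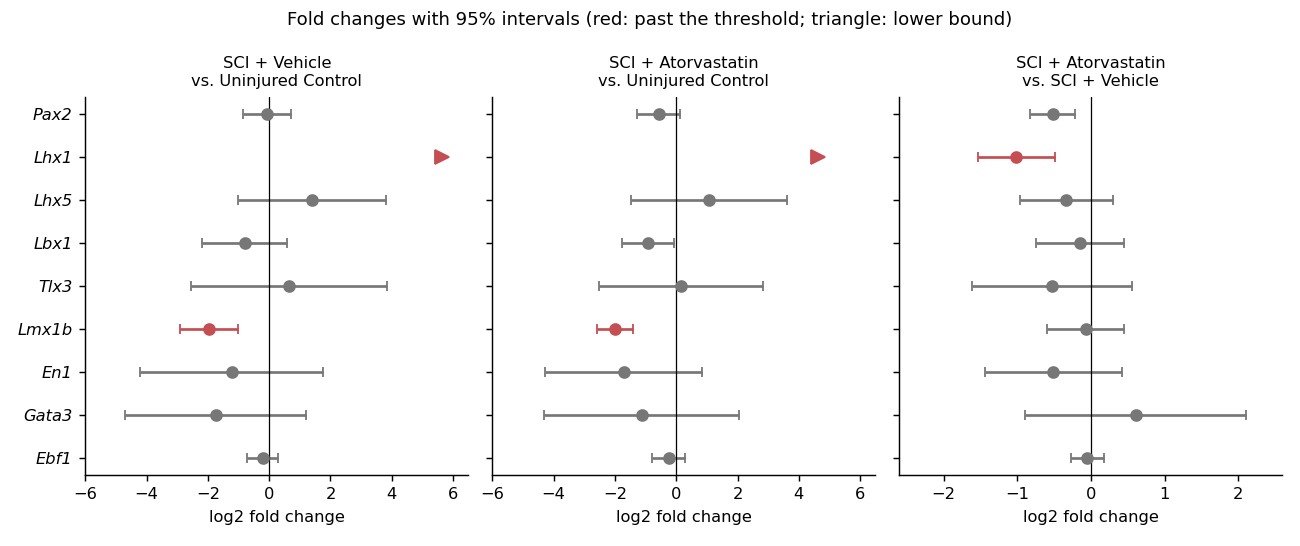
Log2 fold change of each factor (x axis) in the 3 comparisons, with 95% intervals. Red points passed the threshold of their comparison. The triangle gives the lower bound, for counting error only, of Lhx1, which had 0 counts in both controls. Lmx1b lies near -2 in both comparisons with the controls, and Lhx1 near -1 between the treatments.

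Lhx1 and Lmx1b each have a non-coding neighbour on the opposite strand. Lhx1 lies on chromosome 11 from 84518284 to 84525535 on the minus strand (GRCm38, GENCODE annotation), and Lhx1os begins 124 bases away without overlap. Lhx1os had 37.35 and 4.85 CPM in the controls, in which Lhx1 had none, and 1.79 to 8.37 CPM in the SCI mice. The SCI mice overlapped the second control, which is listed at 0 TPM despite 107 counts while every SCI mouse had 2.9 TPM or more. On counts it was called lower in both SCI groups (log2 -2.21 with edgeR adjusted p = 0.0202, and -2.38 with edgeR adjusted p = 0.0124). Between the treatments it was at -0.19 (95% interval -0.87 to 0.50), where Lhx1 was at -1.01. Lmx1b lies on chromosome 2 from 33560965 to 33640511 on the minus strand, and C130021I20Rik begins 681 bases away. It had 17.92 and 4.76 CPM in the controls and was not called in any comparison (log2 0.19 and 0.10 against the controls). The library kit keeps the strand, but how the counting used it is not stated, so Pax2, Gata3, Ebf1, Lhx5 and Lmx1b, which overlap annotated genes on the opposite strand, may hold reads of those, as may Gata3 of 9230102O04Rik and Pax2 of Mir6405 on the same strand.

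The promoters of the 2 called factors are shown because both start sites face such a neighbour. They were taken from RefSeq (GRCm38.p6), run 5′ to 3′ on the minus strand from 250 bases before to 50 after the start, at chr11:84525485-84525784 for Lhx1 and chr2:33641049-33641348 for Lmx1b, and CG pairs are in capitals. RefSeq starts Lmx1b farther upstream than GENCODE does, so its window lies beyond the gene end given above and takes in the start of C130021I20Rik at 33641193.
Lhx1: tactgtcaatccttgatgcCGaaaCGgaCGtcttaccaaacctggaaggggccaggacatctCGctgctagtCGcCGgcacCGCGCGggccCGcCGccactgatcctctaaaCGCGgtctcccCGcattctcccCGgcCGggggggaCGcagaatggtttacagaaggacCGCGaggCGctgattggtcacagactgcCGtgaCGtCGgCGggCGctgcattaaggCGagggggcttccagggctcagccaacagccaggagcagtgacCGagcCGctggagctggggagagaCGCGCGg
Lmx1b: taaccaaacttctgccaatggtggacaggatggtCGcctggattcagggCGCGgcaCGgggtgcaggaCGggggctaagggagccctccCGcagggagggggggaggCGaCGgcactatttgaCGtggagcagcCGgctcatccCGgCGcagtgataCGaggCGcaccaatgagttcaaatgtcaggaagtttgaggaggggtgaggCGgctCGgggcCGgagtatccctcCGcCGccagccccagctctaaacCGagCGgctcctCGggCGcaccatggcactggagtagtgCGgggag
The Lhx1 window holds 31 CG pairs and the Lmx1b window 24, more than 89.4% and 80.0% of the 32851 promoters in the table. Of the 9 factors 7 matched it, with 10 promoters, whose median was 22.5 CG pairs against 7 over all promoters. The homeodomain motif TAATTA, searched on both strands, was in 0 of the 10 (5.29% of all promoters), TATAAA in 0 (13.6%) and the E-box CAGCTG in 3 (16.3%), those of En1, Gata3 and 1 of the 3 of Pax2. A match is only a description of the letters.

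Genes of related programs were read from 7 lists with 76 genes, of which 62 were tested. In SCI + Vehicle vs. Uninjured Control 9 were called higher and 6 lower, 24.2% of those tested, and in SCI + Atorvastatin vs. Uninjured Control 9 and 10, 30.6%, beside the 29.8% and 38.9% of all genes. Of the 9 called higher, 5 in the first and 6 in the second had 0 counts in both controls. These include Bhlhe22, a factor of dorsal interneurons, Shox2, a factor of ventral excitatory neurons, and Slc17a8, a vesicular glutamate transporter. In SCI + Vehicle they were 45.7-fold, 19.8-fold and 14.6-fold above the level that 3 counts per library allow. Those folds are lower bounds for counting error only. As with Lhx1, the 3 genes passed the TPM limit only through the SCI groups and could differ from controls at 0 only upward. None of those called lower had a control at 0.

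The genes called lower included transmitter genes. Slc32a1, the vesicular transporter for GABA and glycine, fell by 1.16 on the log2 scale in SCI + Vehicle (SE 0.26, edgeR adjusted p = 0.00666) and by 1.39 in SCI + Atorvastatin (SE 0.13, edgeR adjusted p = 3.98e-05). Of the 5 inhibitory transmitter genes, 3 were called lower in SCI + Vehicle and 4 in SCI + Atorvastatin. Slc17a6, the main vesicular glutamate transporter of the cord, fell by 0.52 (edgeR adjusted p = 0.0413) and by 0.64 (edgeR adjusted p = 0.00507). Rorb, a nuclear receptor of inhibitory dorsal neurons, fell by 0.72 and by 0.79. Between the treatments edgeR called none of the 62, with 4 at an unadjusted p below 0.05 and a median of -0.07. Such a p was found for 7.03% of all genes tested.

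**Figure D4:**
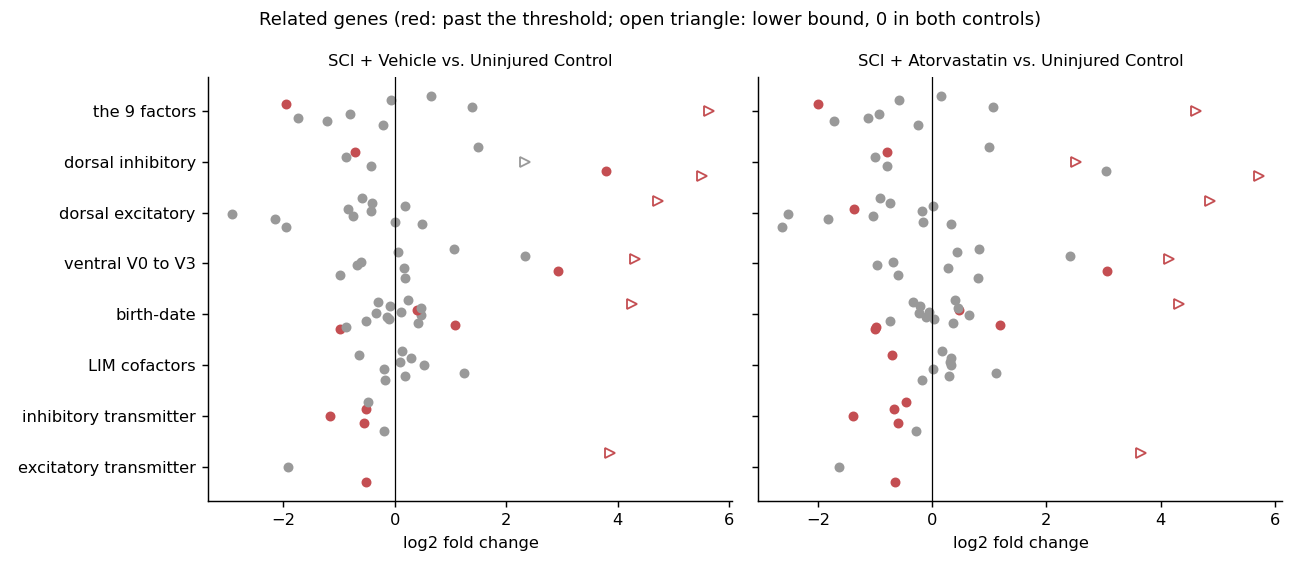
Log2 fold changes (x axis) of the 9 factors and of the tested genes of the 7 related lists against the Uninjured Control group, 1 point per gene. Red points passed the threshold. Open triangles are lower bounds, for counting error only, of genes with 0 counts in both controls. Most of the far right points are triangles, while the inhibitory transmitter genes lie at or below 0.

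Covariation among the 14 SCI mice was weak. It was measured on log2 CPM with the mean of each group removed, over 36 pairs of factors and the 9 relations of each factor with the mean of the neuron markers. None of the 45 relations had an adjusted p below 0.05 and 2 had an unadjusted p below 0.05. Lhx1 and Lhx5 had a Pearson r of 0.65 (permutation p = 0.0314, adjusted 0.685) and a Spearman rho of 0.63 (permutation p = 0.0282, adjusted 0.635), and r was 0.40 without the 2 mice farthest from the median. On log2(TPM + 1) r was 0.42 (permutation p = 0.16). Within SCI + Atorvastatin r was 0.79 and within SCI + Vehicle 0.16, so the relation was not seen within the vehicle mice. En1 and the neuron markers had a Pearson r of 0.73 (permutation p = 0.00741, adjusted 0.333) and a Spearman rho of 0.65 (permutation p = 0.0235, adjusted 0.635), with r at 0.41 without the 2 farthest mice and at 0.62 on log2(TPM + 1) (permutation p = 0.05). Lhx1 and Pax2, the 2 factors with a low p between treatments, had an r of 0.22. Over the 36 pairs 24 were above 0, with a median of 0.074.

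**Figure D5:**
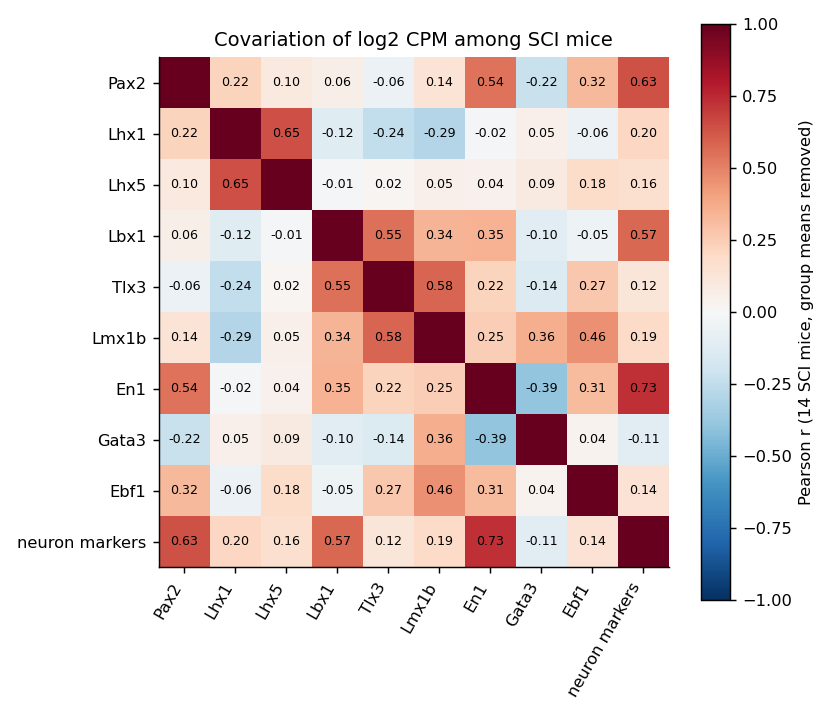
Pearson r between each pair of factors, and between each factor and the mean of the neuron markers, over the 14 SCI mice with group means removed (colour from -1 to 1, values printed). The pair of Lhx1 and Lhx5 (0.65) and the pair of En1 and the neuron markers (0.73) are the only ones with an unadjusted p below 0.05.

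The genes whose log2 CPM followed a factor most closely over the 14 SCI mice, with group means removed, are given as a description. They were picked as the highest r among 13999 tested genes with a mean of at least 50 counts. Such values are high by selection, and none was tested. For Lhx1 they included Cdk11b (r = 0.87) and Wbscr16 (0.85). For Pax2 they were B4galt5 (0.87), Clvs1 (0.87) and Cacng2 (0.83), and for Lmx1b Cbx8 (0.90), Zdhhc8 (0.86) and Ccdc86 (0.86).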

How the data were processed

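Spinal cord RNA of 16 mice was sequenced. The authors trimmed reads with Trimmomatic 0.38 (FastQC 0.12.1), aligned them with STAR 2.5.4b to mm10 and quantified genes with RSEM 1.3.1 (versions from the submitters' processing notes). The authors deposited whole-number counts, not normalized, and TPM, normalized for transcript length. The step behind the whole numbers is not given in the sources used here. Groups came from the sample labels, which give no batch.

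Genes whose average TPM exceeded 1 in any condition were tested with edgeR 4.0.16 in R 4.3.3 (TMM, library size over all genes, 2 groups per fit, Benjamini-Hochberg adjustment over all 16091 genes). The 95% intervals use the standard error of each fold change. Alternatives were DESeq2 1.42.0 and its size factors, all groups in 1 fit, other filters, limma 3.58.1 on log2(TPM + 1) and log2(TPM + 0.1), a block for the replicate number, each mouse left out in turn and, chosen after seeing the data, voom with group quality weights and an adjusted p between treatments. The edgeR fit was tested on simulated counts, which did not hold the many zeros of the real controls. Covariation used 100000 permutations within groups. Named genes were the 9 factors, called genes of the related lists and, for Lhx1, Pax2 and Lmx1b, the 3 genes most like each (1 of those is not reported here), and Lhx1os and C130021I20Rik were chosen as neighbours after values were seen. The members and lists were chosen with earlier results of these data known. The replicates are separate mice per the labels. No protein sequences were used here.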

Additional observations from a re-analysis of the deposited data

Results flagged for a closer look

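In 2 of 18 groups of 7 mice, 1 mouse lay far from the others by the gap to its nearest neighbour over the range of the group, where chance flags about 1 in 20 groups. Lhx1 was at 5.02 CPM in SCI + Vehicle replicate 6, while the other 6 vehicle mice lay between 6.99 and 8.06. Without that mouse the difference between treatments in Lhx1 was -1.09 on the log2 scale, with an unadjusted p of 0.000365 (edgeR). Lhx5 was at 14 CPM in SCI + Vehicle replicate 3, while the other 6 lay between 5.58 and 7.31.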

How the results depend on the processing

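Of the calls against the Uninjured Control group, 2 factors in each comparison (Lhx1 and Lmx1b), 1 was left when a mean TPM above 1 in every condition or at least 10 counts in every mouse was required, because Lhx1 is then not tested (2394 and 2862 genes called in SCI + Vehicle, 3693 and 4020 in SCI + Atorvastatin). With limma on log2(TPM + 1) or log2(TPM + 0.1), 3 were called (4452 and 4921 genes in SCI + Vehicle, 6316 and 6727 in SCI + Atorvastatin), with Tlx3 added, for which control replicate 2 is listed at 0 TPM despite 90 counts. Voom with group quality weights, chosen after seeing the data, called 0 factors and 131 genes in SCI + Vehicle and 1 factor and 145 genes in SCI + Atorvastatin. Between the treatments, DESeq2 called 1 factor and 37 genes and voom 1 and 8. With all 3 groups in 1 fit (1 gene), limma on either scale, and an adjusted p below 0.05 (0 genes), 0 factors were called. The 2 stricter filters also called 0 factors (11 and 10 genes), but Lhx1, at 0 in both controls, is not tested under them. For the other changes the cause was not tested.

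Replicate numbers did not pair the mice (correlations from -0.175 to 0.102, 1 of 11 over 0.1). With the replicate block 0 factors were called in every comparison. The genes called were 27 in SCI + Vehicle vs. Uninjured Control, 0 in SCI + Atorvastatin vs. Uninjured Control and 8 between the treatments. The controls hold only replicates 1 and 2. With the block, comparisons with them therefore rest on the SCI mice of those numbers. With the block, En1 was at 0.98 and 1.80 against the controls, Gata3 at 1.18 in SCI + Vehicle, Ebf1 at 0.0278 in SCI + Atorvastatin, and between treatments Lbx1 at 0.0338 and Lmx1b at 0.0304.

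Other values that turned sign were not called in either fit. On log2(TPM + 0.1) En1 was at 1.24 and 1.27 against the controls and 0.0325 between treatments, and Lbx1 between treatments at 0.11 (0.10 on log2(TPM + 1)). With voom, En1 was at 2.31 and 2.37 and Gata3 at 1.05 and 1.35 against the controls, Pax2 at 0.0335 in SCI + Vehicle, and between treatments Lbx1 at 0.0648, Lmx1b at 0.0745 and En1 at 0.0697.

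With each mouse left out in turn, calls against the controls covered 2 to 5 factors in SCI + Vehicle (3839 to 7806 genes), 2 to 6 in SCI + Atorvastatin (5582 to 9826), and 0 to 1 factors were called between the treatments (5 to 32). The log2 values of factors that turned sign ran, in SCI + Vehicle and then SCI + Atorvastatin against the controls, from -0.62 to 0.35 and from -0.65 to 0.32 for Ebf1, from -2.23 to 9.67 and from -2.72 to 9.21 for En1, from -2.76 to 7.30 and from -2.14 to 7.97 for Gata3, from -1.44 to 0.39 and from -1.58 to 0.26 for Lbx1, from -0.57 to 0.67 and from -1.08 to 0.18 for Pax2, and from -0.34 to 9.15 and from -0.85 to 8.67 for Tlx3. Between the treatments they ran from -0.14 to 0.0138 for Ebf1, from -0.32 to 0.13 for Lbx1 and from -0.20 to 0.0640 for Lmx1b. The calls of Lhx1 and Lmx1b against the controls held in each fit that left out 1 SCI mouse. With 1 control left out the log2 values of both kept their sign. For Lhx1 that sign was fixed by the 0 counts in both controls.

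With only 2 controls, whose counts on genes lay within the range of the SCI mice but in which 47.9% and 50.2% of genes averaging 100 to 150 counts in SCI mice were at 0, the direction against them was not settled for the 6 factors that turned sign.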
